A study of Mus musculus with 9 samples.

Results

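The genes that encode the proteasome were followed in left ventricle RNA of mice lacking delta-sarcoglycan (knockout, KO) and of wild-type (WT) mice. Members were all symbols that start with Psma, Psmb, Psmc, Psmd or Psme followed by a digit. They were kept where the rounded count reached 10 in at least 2 of the 9 libraries. Of 20634 genes in the files, 46 symbols matched and 45 were kept. They were 8 alpha subunits of the core particle, 4 structural and 3 constitutive catalytic beta subunits, the 3 catalytic subunits of the immunoproteasome, 6 ATPases and 11 non-ATPase subunits of the regulatory particle, 3 of its assembly chaperones, 4 activators and 3 other symbols. The last 3 were Psmb6-ps2, a pseudogene, Psme2b, an intronless copy of Psme2, and Psmc3ip, a factor of meiotic recombination that is not a proteasome subunit. Psmb6-ps2 lay just inside the minimum, with 6.04 to 12.2 counts, and Psmb5-ps just outside it, with 1 to 11 counts. Psmb11, the catalytic subunit of thymic epithelium, was not analysed here.

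All animals were on the C57BL/6 background and 6 months old, and all had running wheels at intervals, which served to bring out the heart disease. The groups were WT on plain drinking water (WT vehicle, 2 libraries), WT on ifetroban (2), delta-sarcoglycan KO on plain water (KO vehicle, 2) and KO on ifetroban (3). Ifetroban, a blocker of the thromboxane-prostanoid (TP) receptor, was given in the water from weaning at 25 mg/kg/day. Hearts were rinsed with saline before the RNA was taken, and the RNA is that of all cells of the ventricle. The title and source of KO ifetroban replicate 1 say ifetroban and its treatment entry says vehicle, and it was analysed as ifetroban. The labels do not say whether replicates were separate animals, so the p-values measure the spread between libraries, which may be technical.

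The proteasome degrades proteins tagged with ubiquitin. Its barrel-shaped core, the 20S particle, stacks rings of alpha subunits outside and beta subunits inside, and Psmb5, Psmb6 and Psmb7 encode the beta subunits that cut. Interferon-gamma induces Psmb8, Psmb9 and Psmb10, whose products take the places of those of Psmb5, Psmb6 and Psmb7 and shift the peptides toward ones that class I molecules present, and leukocytes carry much of this immunoproteasome. The 19S cap holds a ring of ATPases (Psmc genes) that unfolds the substrate and non-ATPase subunits (Psmd genes) that bind ubiquitin or remove it. Psme1 and Psme2 encode the PA28 alpha and beta activators, Psme3 the nuclear PA28 gamma and Psme4 the PA200 activator. In the heart the ubiquitin-proteasome system turns over sarcomere proteins.

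Promoter windows of the catalytic genes are shown because these genes form the comparison of immunoproteasome with constitutive subunits. RefSeq windows (GRCm38.p6, the assembly of mm10) were matched for 37 of the 45 members, in 40 windows of 300 bases each, and none was matched for Psmb7. The 250 bases before the RefSeq start are printed 5′ to 3′ on the gene's strand, at chr17:34197945-34198194 (plus) for Psmb8, chr17:34187331-34187580 (minus) for Psmb9, chr8:105938393-105938642 (minus) for Psmb10, chr14:54617996-54618245 (minus) for Psmb5 and chr11:70525107-70525356 (plus) for Psmb6. Capitals mark a gamma-activated site (TTCNNNGAA) in Psmb8 and an antioxidant response element (TGACNNNGC) in Psmb5 and Psmb6.
Psmb8: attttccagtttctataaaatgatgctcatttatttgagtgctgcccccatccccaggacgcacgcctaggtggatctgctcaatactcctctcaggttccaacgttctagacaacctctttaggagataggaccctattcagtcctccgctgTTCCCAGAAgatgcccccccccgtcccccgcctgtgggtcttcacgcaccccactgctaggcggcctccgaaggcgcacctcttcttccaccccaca
Psmb9: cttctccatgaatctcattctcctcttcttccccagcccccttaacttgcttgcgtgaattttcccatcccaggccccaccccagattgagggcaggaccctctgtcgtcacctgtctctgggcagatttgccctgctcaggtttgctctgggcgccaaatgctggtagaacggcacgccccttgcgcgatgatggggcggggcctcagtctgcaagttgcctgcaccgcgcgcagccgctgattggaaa
Psmb10: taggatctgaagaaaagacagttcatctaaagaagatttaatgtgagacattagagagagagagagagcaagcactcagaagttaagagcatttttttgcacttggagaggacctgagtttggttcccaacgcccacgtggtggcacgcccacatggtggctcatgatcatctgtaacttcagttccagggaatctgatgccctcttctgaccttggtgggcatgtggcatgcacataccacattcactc
Psmb5: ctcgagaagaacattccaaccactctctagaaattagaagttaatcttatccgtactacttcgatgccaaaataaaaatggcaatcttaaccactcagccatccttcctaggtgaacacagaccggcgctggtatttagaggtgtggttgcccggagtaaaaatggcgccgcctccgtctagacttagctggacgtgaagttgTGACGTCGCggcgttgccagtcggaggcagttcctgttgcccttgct
Psmb6: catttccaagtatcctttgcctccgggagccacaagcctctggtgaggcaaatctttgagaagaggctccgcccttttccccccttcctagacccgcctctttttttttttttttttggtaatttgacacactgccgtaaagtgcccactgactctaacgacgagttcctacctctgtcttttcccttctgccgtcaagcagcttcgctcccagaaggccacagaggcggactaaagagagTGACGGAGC
Windows were searched on both strands for 3 motifs, whose matches did not overlap in the windows printed. The gamma-activated site matched in 2 of the 40 member windows (Psmb8 and Psmd2) and in 8.3% of all 32851 windows. The letters of the antioxidant response element, read by Nfe2l1 and Nfe2l2, matched in 6 (Psmb5, Psmb6, Psmc6, Psmd9, Psmd12 and Psme4) and in 12.4% of all windows. The interferon-stimulated response element, searched as GAAA, any 2 bases and GAAA, matched in 4 (Psmb3, Psmd4, Psmd9 and Psme1) and in 3.44% of all windows. The window of Psmb9 shares 275 bases with that of Tap1, which encodes a peptide transporter and is read in the opposite direction. The printed windows of Psmb8 and Psmb9 lie inside the coordinates of the genes as counted, which are given below. A match is a description of these letters and not a bound site.

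Depth was 21510263 to 30182955 counts per library, of which the members held 0.261% to 0.300%, and 15549 genes were tested, all 45 members among them. Sgcd, the targeted gene, ranged from 7.30 to 13.3 CPM (counts scaled to a common library size) in KO and from 8.36 to 23.7 in WT, and the library labelled WT vehicle replicate 1, with 8.36, lay within the KO range. The files give a value for the whole gene, so it does not check the deletion. The 4 libraries labelled WT vehicle 1, KO vehicle 1, KO vehicle 2 and KO ifetroban 1 had less signal from long transcripts, with a Spearman rho of -0.40 to -0.52 between a gene's deviation from its mean and transcript length across 13051 protein-coding genes, and the other 5 had a rho of 0.38 to 0.43. These are called negative-slope and positive-slope libraries below, a division found in the data and not part of the design. Both KO vehicle libraries were negative and both WT ifetroban libraries positive. Of the genotype comparisons, the one under vehicle thus set 2 negative-slope KO libraries against 1 of each kind. Under ifetroban KO ifetroban 1 was the only negative-slope library. Over both treatments the negative set held 3 KO and 1 WT library and the positive set 2 KO and 3 WT. The 8 cardiomyocyte markers were present throughout, at a sum of 50154 to 54076 CPM in WT and 41498 to 48203 in KO.

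No member passed the threshold in any comparison. The test was edgeR's quasi-likelihood test on all 15549 genes with Benjamini-Hochberg adjusted p under 0.05, and log2 changes are given ± SE. For genotype over both treatments 0 of 45 members passed, against 2.33% of all genes, and 2 members (Psmb8 and Psmb10) had an unadjusted p under 0.05, against 16.1% of all genes. Under vehicle 0 passed (0.0515% of all genes) and 0 had an unadjusted p under 0.05 (7.9%), and under ifetroban again 0 passed (0.0386%) and 0 had such a p (9.36%). For ifetroban against vehicle in KO, in WT and for the interaction, 0 members passed and 0 had an unadjusted p under 0.05, with 0% of all genes passing and 3.96%, 2.25% and 1.92% at the unadjusted level. For ifetroban over both genotypes 0 passed (0% of all genes) and 2 members (Psmb10 and Psma6) had an unadjusted p under 0.05 (7.96%). The DESeq2 Wald test also called 0 members in each of the 7 comparisons. It called 1% of all genes under vehicle, 1.87% under ifetroban, 5.77% for genotype over both treatments (2 members and 16.9% of all genes at an unadjusted p under 0.05), 0.0129% for ifetroban over both genotypes and 0% in the other 3.

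Most members were high or low in the same libraries. Of the 42 members left without the 3 other symbols, 33 to 40 lay above their own mean in each of the 4 negative-slope libraries and 1 to 8 in each of the 5 positive-slope ones. The summed level of all 45 members was 3243 CPM in the library labelled WT vehicle 1 and 2604 in WT vehicle 2. It was 2674 and 2661 in WT ifetroban, 2811 and 2918 in KO vehicle, and 3017, 2552 and 2633 in KO ifetroban. The highest and the lowest of the vehicle libraries thus both carried a WT label. The 4 negative-slope libraries are both KO vehicle libraries and the 2 with a doubt over their label. The doubt is over WT vehicle 1 by its Sgcd level, which does not check the deletion, and KO ifetroban 1 by its treatment entry. Telling library set from group thus rests on those 2 labels. The library labelled WT vehicle 1 lay outside the KO range in summed markers of macrophages (377 CPM), leukocytes (34.4), fibroblasts (541) and cardiomyocytes (50154). Gene by gene, Myh6, Actc1 and Ryr2 of the cardiomyocyte list and Dcn and Lum of the fibroblast list lay inside the KO range. The other genes of those lists lay outside it. In these lists the sums of KO and WT did not overlap, and in those of lymphocytes and endothelium they did. Across all libraries 0 of 45 members had KO wholly above WT (4.62% of all genes) or wholly below it (2.38%). Under vehicle only Psmb8 was wholly above (18.3%) and Psmd2 and Psme4 wholly below (17.6%), and under ifetroban Psmd5 and Psmd7 were above (14%) and Psmc3ip and Psmd1 below (15%).

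**Figure D1:**
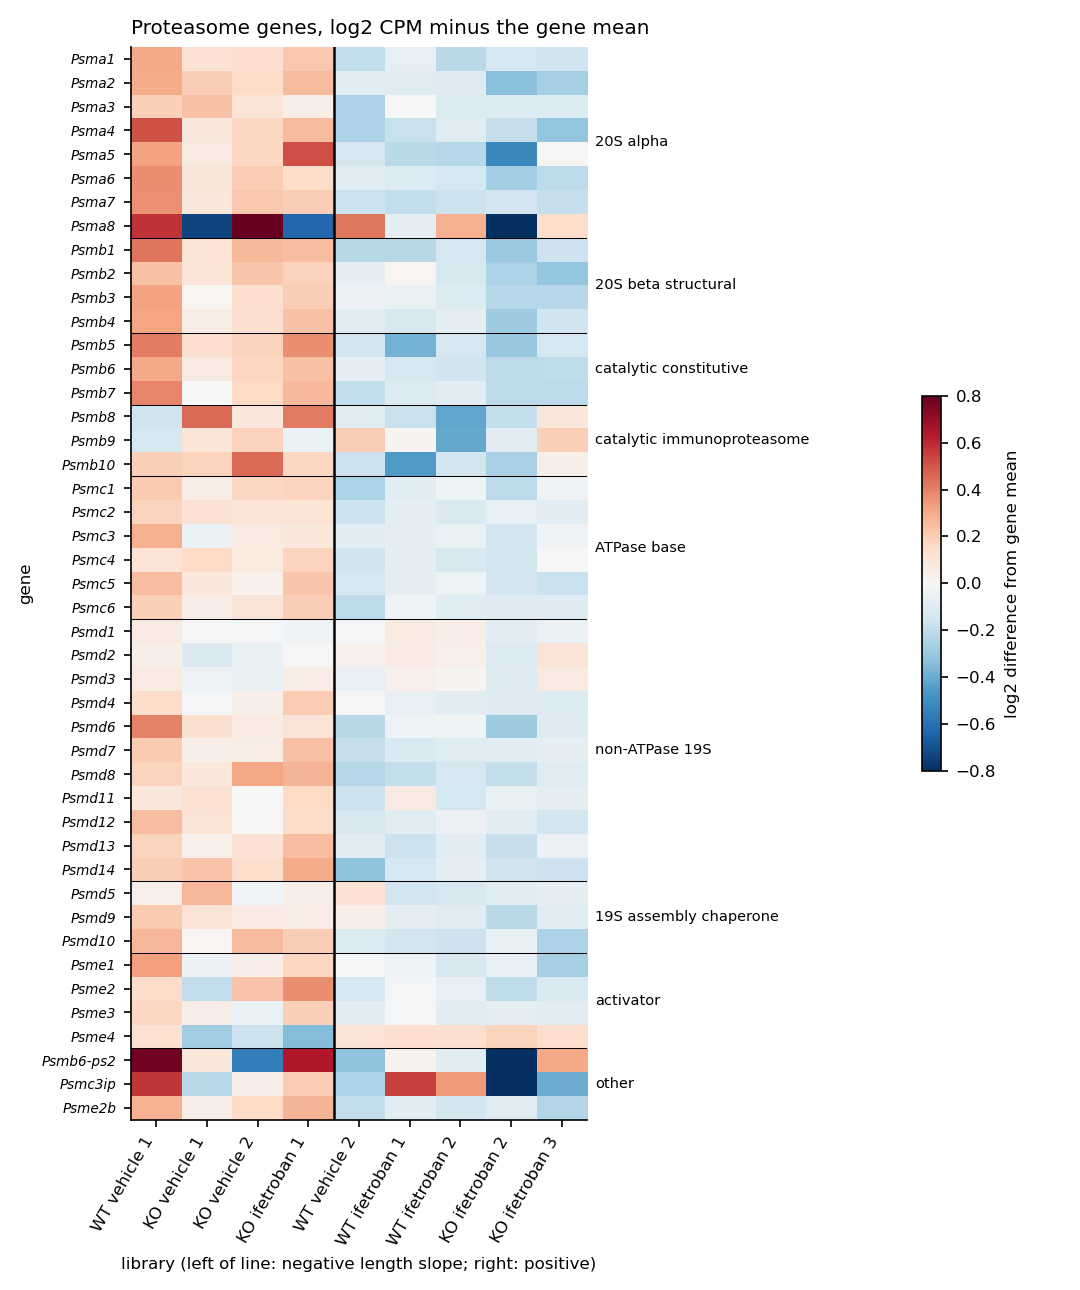
Log2 CPM of each of the 45 genes (rows, by role) minus the gene's mean over the 9 libraries, with the colour scale ending at 0.8 in either direction; columns are libraries, the 4 with a negative slope of signal on transcript length left of the line and the 5 with a positive slope right of it. Most core and cap genes are above their mean on the left and below it on the right, while Psme4, Psmb9, Psma8, Psmb8 and Psmd1 to Psmd3 differ from this pattern.

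Psmb8 and Psmb10 had the highest genotype values of all members, and the third immunoproteasome gene, Psmb9, lay at 0.16 with Psma5 and Psmd14. Psmb8, which encodes the subunit beta5i (mm10 chr17:34197721-34201454, plus strand), stood at 11.95 and 12.47 CPM in WT vehicle, 11.8 and 9.99 in WT ifetroban, 18.3 and 14.2 in KO vehicle and 17.8, 11.73 and 14.2 in KO ifetroban. All KO libraries but KO ifetroban 2 were above all WT libraries. Its log2 change for genotype over both treatments was 0.41 ± 0.14, with 15.2 ± 2.75 CPM in KO (SD, n = 5) against 11.6 ± 1.08 in WT (SD, n = 4), and it did not pass (edgeR adjusted p = 0.164, unadjusted p = 0.0120). It was the member with the highest value for genotype over both treatments, also with the slope set as a term (0.30 ± 0.14, adjusted p = 0.261) or with an offset on length and GC content (0.33, adjusted p = 0.144). The values were 0.41 ± 0.21 under vehicle (adjusted p = 0.725) and 0.42 ± 0.20 under ifetroban (adjusted p = 0.576), and the interaction was 0.0072 ± 0.29. The value under vehicle was 0.21 without KO vehicle 1, and the value under ifetroban was 0.25 without KO ifetroban 1. Without the library labelled WT vehicle 1 the change over both treatments was 0.42 (adjusted p = 0.151), and without KO ifetroban 1 it was 0.33 (adjusted p = 0.232). The window printed above for Psmb8, with its gamma-activated site, lies inside the coordinates of the counted gene. A link between that site and the level of Psmb8 was not tested.

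Psmb10 encodes beta2i (chr8:105935728-105938392, minus strand) and was the most abundant of the trio. It stood at 35.5 and 27.7 CPM in WT vehicle, 22.8 and 28.1 in WT ifetroban, 35.3 and 42.7 in KO vehicle and 34.97, 26.1 and 32.2 in KO ifetroban, so that both KO vehicle and all KO ifetroban values but 26.1 lay above 3 of the 4 WT values. The 4 negative-slope libraries were all above the 5 positive-slope ones. Its change was 0.30 ± 0.12 for genotype over both treatments (adjusted p = 0.277), 0.17 ± 0.10 with the slope set as a term (adjusted p = 0.428) and 0.38 without the library labelled WT vehicle 1 (adjusted p = 0.136). For ifetroban over both genotypes it was -0.32 ± 0.12 (adjusted p = 0.545, unadjusted p = 0.0256). Psmb9, which encodes beta1i (chr17:34181988-34187764, minus strand), was the lowest of the trio. It stood at 4.98 and 6.28 CPM in WT vehicle, 5.57 and 4.12 in WT ifetroban, 5.88 and 6.22 in KO vehicle and 5.29, 5.18 and 6.26 in KO ifetroban. These groups overlapped and the change was 0.16 ± 0.14 (adjusted p = 0.617), with 0.058 without WT ifetroban 2, 0.10 without KO ifetroban 3 and 0.24 without WT ifetroban 1.

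Markers of macrophages and leukocytes differed between the same groups. Of 12 macrophage markers 11 rose in KO over both treatments (median 0.97), a comparison in which 2.33% of all genes passed. Their summed level was 260.0 to 377 CPM in WT and 566 to 640 in KO, with no overlap. All 4 leukocyte markers rose (median 1.08), with 29.0 to 38.8 CPM in WT and 58.3 to 94.2 in KO. The macrophage count fell to 1 without WT ifetroban 2, 2 without KO vehicle 1 and 7 without WT ifetroban 1, and the leukocyte count fell to 2 without WT vehicle 2, WT ifetroban 1, WT ifetroban 2, KO vehicle 1 or KO ifetroban 2, while the medians stayed at 0.84 or more. Of 9 lymphocyte markers 4 were tested and 0 passed (median 0.13), with a summed level of 2.10 to 4.23 CPM over all libraries. No macrophage or leukocyte marker was at 0 in every library. Their part in the values of Psmb8, Psmb10 and the ratio below was not tested. In bulk RNA more cells of a type and more RNA per cell cannot be told apart.

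**Figure D2:**
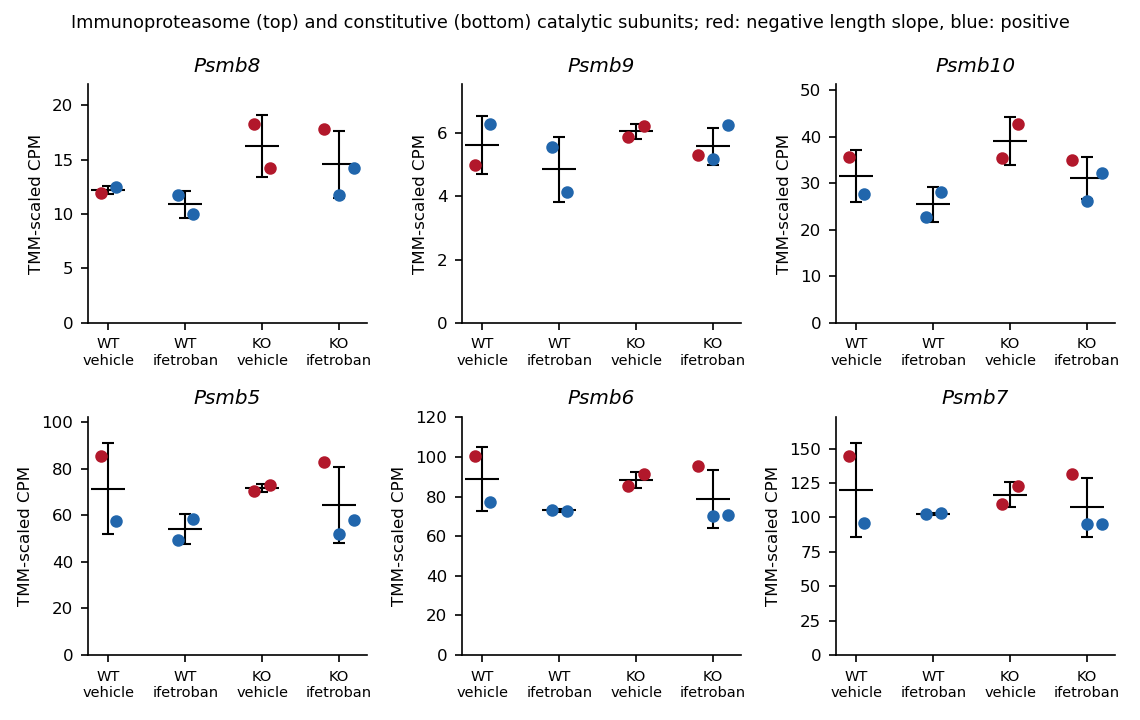
TMM-scaled CPM of the 3 immunoproteasome genes (top) and the 3 constitutive catalytic genes (bottom) in each library, by group; bars show the mean and SD of a group (n = 2, 2, 2 and 3), red points are negative-slope and blue points positive-slope libraries. Psmb5, Psmb6, Psmb7 and Psmb10 separate by colour, with every red point above every blue point. Psmb9 overlaps both by colour and by genotype, and Psmb8 has 4 of 5 KO points above all WT points.

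None of the constitutive catalytic genes passed for genotype either, and their difference from the immunoproteasome genes was not tested. Psmb5, the gene of the chymotrypsin-like subunit beta5 (chr14:54614120-54617995, minus strand), stood at 85.4 and 57.7 CPM in WT vehicle, 49.5 and 58.5 in WT ifetroban, 70.6 and 73.0 in KO vehicle and 83.1, 52.1 and 58.2 in KO ifetroban. The highest and the lowest value were both from WT. Its change was 0.14 ± 0.16 (adjusted p = 0.710) for genotype over both treatments and -0.091 ± 0.088 with the slope set as a term. Without the library labelled WT vehicle 1 it was 0.29 ± 0.15 (adjusted p = 0.262), more than 1.5 times the value with it, and without KO ifetroban 1 it was 0.018.

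Psmb6, the gene of the caspase-like subunit beta1 (chr11:70525367-70527858, plus strand), stood at 100.3 and 77.3 CPM in WT vehicle, 73.5 and 72.7 in WT ifetroban, 85.5 and 91.4 in KO vehicle and 95.4, 70.2 and 70.6 in KO ifetroban. Psmb7, the gene of the trypsin-like subunit beta2 (chr2:38588036-38644087, minus strand), stood at 144 and 96.1 CPM in WT vehicle, 102 and 103 in WT ifetroban, 110.0 and 123 in KO vehicle and 132, 95.2 and 95.0 in KO ifetroban. In both genes the 4 negative-slope libraries lay above the other 5, and within each slope set the KO libraries lay below the WT libraries. The changes for genotype over both treatments were 0.056 ± 0.12 for Psmb6 and 0.015 ± 0.14 for Psmb7, and with the slope set as a term they were -0.11 ± 0.066 (adjusted p = 0.422) and -0.19 ± 0.069 (adjusted p = 0.160).

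The balance of the 2 kinds of catalytic subunit was read per length. For each library the summed CPM per kilobase of Psmb8, Psmb9 and Psmb10 was divided by that of Psmb5, Psmb6 and Psmb7, with the longest annotated transcript as the length. The log2 ratio was -2.83 and -2.58 in WT vehicle, -2.71 and -2.65 in WT ifetroban, -2.41 and -2.38 in KO vehicle and -2.65, -2.56 and -2.32 in KO ifetroban. It was -2.46 ± 0.13 in KO (SD, n = 5) and -2.69 ± 0.11 in WT (SD, n = 4), a difference of 0.227, and the genotypes overlapped through KO ifetroban 1. In percent, immunoproteasome genes made up 12.3% to 16.6% of the sum of both.

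Between the slope sets (negative minus positive) the mean ratio differed by -0.039 within KO and by -0.183 within WT, where the negative set is the library labelled WT vehicle 1 alone. Over all libraries the difference was -0.0033, with 3 KO and 1 WT library against 2 KO and 3 WT. KO minus WT was 0.348 within the negative-slope libraries, where WT is 1 library, and 0.205 within the positive-slope ones, with no overlap in either. It was 0.307 under vehicle, with no overlap, and 0.170 under ifetroban, with overlap. Ifetroban minus vehicle was -0.115 in KO and 0.022 in WT, both with overlap. Without the library labelled WT vehicle 1 KO minus WT was 0.181, and without KO ifetroban 1 it was 0.273. By pair of exchanged subunits, KO minus WT was 0.273 for Psmb8 over Psmb5, 0.120 for Psmb9 over Psmb6 and 0.262 for Psmb10 over Psmb7. All 3 pairs overlapped between the genotypes. The SD in KO and WT was 0.16 and 0.35 for the first pair, 0.24 and 0.34 for the next and 0.18 and 0.16 for the last. Negative minus positive slope set was -0.084 within KO and -0.56 within WT for the first pair. For the next it was -0.342 and -0.506, and for the last 0.020 and -0.076. The slope sets did not overlap for the first pair within WT and for the next within KO and within WT. Within WT the negative set is again 1 library. The level of the ratio depends on the length used, since the longest models of Psmb8 and Psmb9 keep an intron and that of Psmb7 is 2849 bases against 1160 for the principal transcript. With principal transcripts the share was 9.95% to 13.9% and KO minus WT was 0.234, with overlap within the positive-slope libraries (0.210) and none under ifetroban (0.187). Psmb10 weighed most in the immunoproteasome sum. Per kilobase of principal transcript the mean over 9 libraries was 24.2 CPM for Psmb10, 8.36 for Psmb8 and 4.09 for Psmb9. No p is given for the ratio, since it is a score over chosen members.

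**Figure D3:**
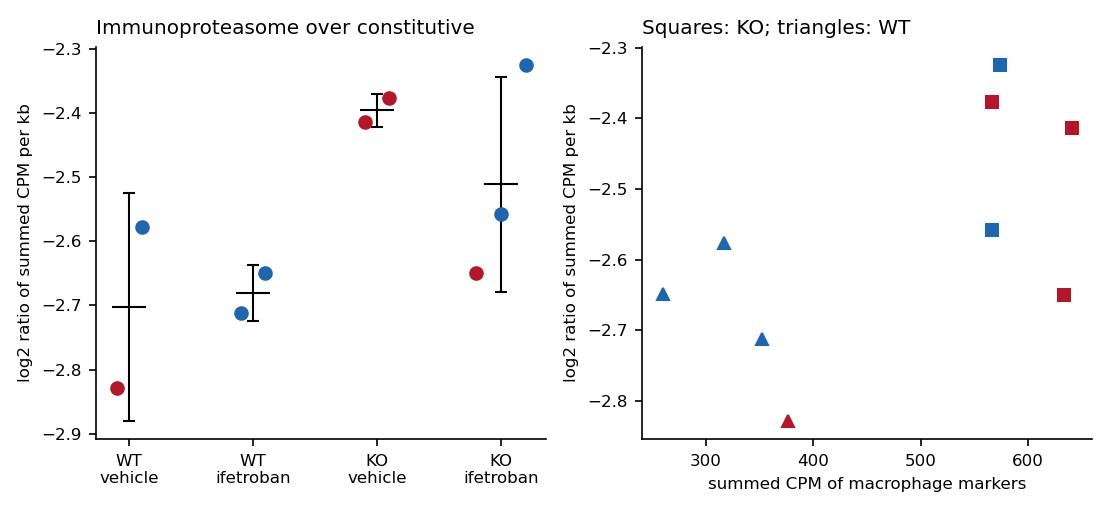
Left, the log2 ratio of summed CPM per kilobase, immunoproteasome over constitutive catalytic genes, by group with mean and SD (n = 2, 2, 2 and 3); right, the same ratio against the summed CPM of 12 macrophage markers, squares for KO and triangles for WT, red for negative-slope and blue for positive-slope libraries. KO libraries span -2.65 to -2.32 and WT libraries -2.83 to -2.58, while the marker sums of the genotypes do not overlap.

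Of the 12 alpha and structural beta genes, 11 were higher in each negative-slope library than in any positive-slope one, and Psma8 was not. Of all genes 12.1% were higher in this way. The alpha subunits form the gate of the core, and for genotype over both treatments 7 of 8 had a positive value (median 0.058) and 0 passed. Psma5 was highest (0.16 ± 0.19, adjusted p = 0.731), at 13.2 and 9.60 CPM in WT vehicle, 9.08 and 8.99 in WT ifetroban, 11.1 and 11.8 in KO vehicle and 15.1, 7.37 and 10.6 in KO ifetroban. Its 4 highest libraries were the negative-slope ones, and its change was 0.0011 without KO ifetroban 1 and 0.29 without the library labelled WT vehicle 1. The structural beta subunits Psmb1, Psmb2, Psmb3 and Psmb4 had values of -0.028 to 0.090, with Psmb1 highest and Psmb3 lowest. With the slope set as a term all 15 alpha, structural and constitutive catalytic genes had a negative genotype value (median -0.16), from -0.31 for Psma8 to -0.027 for Psma3, and 0 members passed, against 3.04% of all genes. The 3 immunoproteasome genes were positive in the same fit, at 0.17 to 0.30. Over all members 12 then had an unadjusted p under 0.05, 11 of them negative and Psmb8 positive, against 17.8% of all genes.

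Psma8, the testis-specific form of the alpha4 subunit, was barely detected. It had 7 to 29 counts per library, or 0.222 to 1.16 CPM, and its genotype change was -0.29 ± 0.43 (adjusted p = 0.776), with -0.81 without KO vehicle 2 and -0.050 without KO vehicle 1. The levels of core genes differed widely per length of principal transcript, for example 103 CPM per kilobase for Psmb6, 95.9 for Psmb7 and 88.7 for Psmb4 against 8.69 for Psma5 and 5.67 for Psma3, as means over 9 libraries. In the standard core these 5 products are present in equal number. How reads of near-identical copies were counted was not given in the sources used here. Levels of genes with such copies are therefore uncertain.

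In the regulatory cap the ATPase genes Psmc1 to Psmc6 had genotype values of -0.027 for Psmc3 to 0.13 ± 0.094 for Psmc4 (adjusted p = 0.538), 5 of 6 positive. Psmc4 stood at 55.8 and 46.4 CPM in WT vehicle, 49.0 and 47.3 in WT ifetroban, 57.8 and 54.6 in KO vehicle and 58.7, 46.8 and 51.6 in KO ifetroban. The genotypes overlapped, and the 4 negative-slope libraries were the highest. Psmc3, the most abundant ATPase per length of transcript, ranged from 125 CPM in KO ifetroban 2 to 169 in the library labelled WT vehicle 1.

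Of the 11 non-ATPase genes 7 had a positive genotype value and 0 passed. Psmd8, a subunit of the lid, was highest (0.19 ± 0.12, adjusted p = 0.476), at 88.3 and 66.5 CPM in WT vehicle, 68.2 and 71.1 in WT ifetroban, 82.7 and 96.6 in KO vehicle and 94.0, 68.2 and 72.8 in KO ifetroban. With the slope set as a term it was 0.019 ± 0.070. Psmd2, a large scaffold subunit of the base, was lowest (-0.085), at 166 to 169 CPM in the 4 WT libraries and 149.6 to 174 in the 5 KO libraries. Psmd1, the other scaffold, was at 103 to 109.9 CPM in WT and 98.0 to 105 in KO. Psmd1 to Psmd3 are among the longer members, and the library sets differed little in them (log2 difference 0.0068 to 0.10). The assembly chaperones Psmd5, Psmd9 and Psmd10 had values of -0.016 to 0.095.

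Among the activators Psme4 had a pattern of its own over the libraries. Psme4 (chr11:30771726-30880361, plus strand) encodes PA200 and has the longest transcript of the members, 6491 bases. It stood at 358 and 354 CPM in WT vehicle, 362 and 359.7 in WT ifetroban, 271 and 292 in KO vehicle and 259, 372 and 361 in KO ifetroban. The WT libraries lay between 354 and 362, and the 3 low libraries were those of KO with a negative slope, while the negative-slope library labelled WT vehicle 1 was not low. Its change was -0.34 ± 0.17 under vehicle (adjusted p = 0.716), -0.13 ± 0.16 under ifetroban, -0.22 ± 0.11 over both treatments (adjusted p = 0.375) and 0.23 ± 0.16 for ifetroban in KO (adjusted p = 0.862). With the slope set as a term the change over both treatments was -0.12 ± 0.087. Under ifetroban it was 0.024 without KO ifetroban 1, the library whose treatment labels conflict.

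Psme1 (PA28 alpha) ranged from 64.9 to 98.0 CPM and Psme3 (PA28 gamma) from 51.5 to 62.6, with changes of -0.057 ± 0.11 and 0.015 ± 0.095. Psme2 (PA28 beta, chr14:55587441-55591113, minus strand) was listed at 5.02 to 7.49 CPM and its copy Psme2b (chr11:48945354-48946190, minus strand) at 29.6 to 42.1. The annotated coding sequences of both are 720 bases long and the same at 715, or 99.31%. Coding bases 444 to 543 of each, from the GENCODE M21 transcripts, are shown because they hold 3 of the 5 differences, in capitals.
Psme2: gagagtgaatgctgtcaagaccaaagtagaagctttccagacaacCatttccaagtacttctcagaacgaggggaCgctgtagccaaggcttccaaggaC
Psme2b: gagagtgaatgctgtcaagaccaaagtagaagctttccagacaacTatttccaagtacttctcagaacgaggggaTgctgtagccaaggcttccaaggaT
Reads of these genes can hardly be told apart by sequence within the coding part, and Psme2b held 84.7% to 87.7% of the summed level in every library. The split between them therefore rests on how the reads were assigned, and the sources used here do not state it. With the counts of both summed, the level was 34.9 to 49.5 CPM and the genotype change 0.078 ± 0.13 (adjusted p = 0.803).

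Of the other symbols, Psmc3ip had the lowest genotype value of all members. It stood at 2.31 and 1.296 CPM in WT vehicle, 2.26 and 1.96 in WT ifetroban, 1.33 and 1.61 in KO vehicle and 1.78, 0.858 and 1.17 in KO ifetroban. Its counts were 27 to 56 in a library. KO was below WT under ifetroban without overlap, and groups overlapped under vehicle. The change was -0.54 ± 0.27 over both treatments (adjusted p = 0.351) and -0.89 ± 0.24 with the slope set as a term (adjusted p = 0.0665), the lowest adjusted p of any member in the 7 reported comparisons and the 123 made under other settings. Psmb6-ps2 was at 0.191 to 0.616 CPM, with a change of -0.14 ± 0.43.

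Over all members the sign of the genotype value depended on the fit and on single libraries. In the additive fit 33 of 45 values were positive and the median was 0.049, against -0.016 over all genes. With the slope set as a term 6 of 45 were positive and the median was -0.094 (all genes -0.014), and with the offset on length and GC content 22 of 45 were positive (median -0.015). Without the library labelled WT vehicle 1, 40 of 45 were positive (median 0.13), without WT vehicle 2 it was 21 (median -0.0088), and without KO ifetroban 1 it was 20 (median -0.029). With KO ifetroban 1 counted as vehicle 22 were positive (median -0.0020). In each of these 7 fits 6 members were positive, namely Psmb8, Psmb9, Psmb10, Psmc4, Psmd5 and Psmd8.

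**Figure D4:**
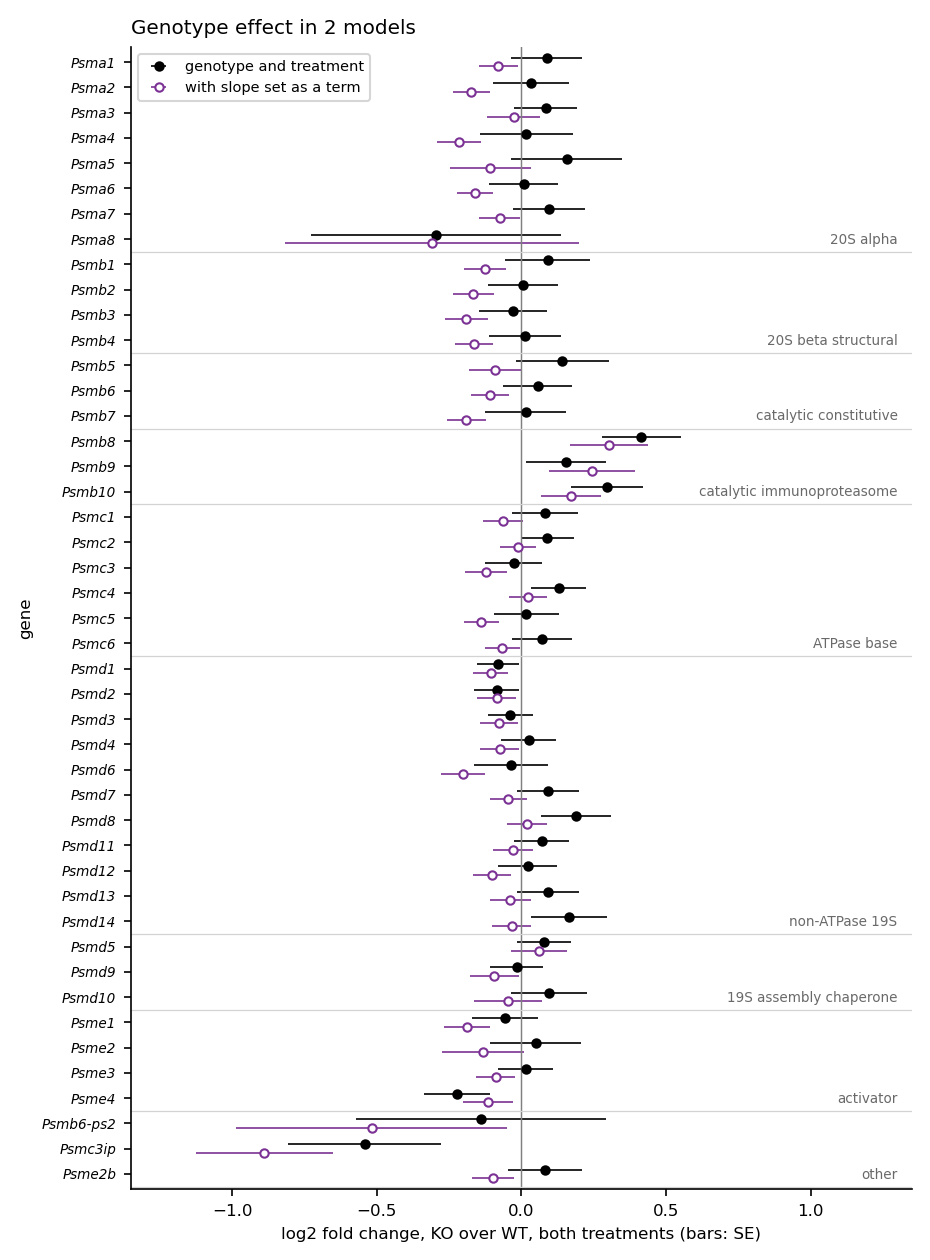
Log2 fold change of KO over WT across both treatments for each of the 45 genes, by role, in the additive fit (filled black) and with the slope set as a term (open purple), with bars of 1 SE. In the second fit the core genes lie left of 0, the immunoproteasome trio stays right of 0 and Psmc3ip moves to -0.89.

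The comparison of levels between the slope sets covers most members. With the 4 groups in the model, 42 of 45 were higher in the negative-slope libraries, with a median log2 difference of 0.36, against -0.020 for all genes. In 30 of 45 every negative-slope library was above every positive-slope one, against 12.1% of all genes, and in 0 of 45 was it the reverse (15.9%). Both sets occur within WT vehicle and KO ifetroban only, so the difference rests on those 5 libraries. The sets were drawn from the values of all genes, and they were the same 4 and 5 libraries when the members were left out, so this is a description without a test. Members are short, with a median longest transcript of 1883 bases against 3180 for all genes tested. Across the 45 members Spearman's rho between transcript length and the set difference was -0.69, and across 13051 protein-coding genes -0.63, where genes share libraries and depth.

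Psma5 (0.63), Psma4 (0.61) and Psmb5 (0.58) were the highest of the proteasome subunits, and Psme4 (-0.28 ± 0.11), Psmb9 (-0.20 ± 0.18) and Psma8 (-0.022 ± 0.65) were the only members below 0. Psma2 was at 0.48 with a transcript of 2911 bases. By role the median was 0.52 for the constitutive catalytic genes, 0.43 for alpha, 0.42 for structural beta and 0.31 for non-ATPase cap. It was 0.30 for ATPase, 0.30 for the activators, 0.25 for the immunoproteasome genes and 0.19 for the assembly chaperones. The 3 other symbols had a median of 0.82. In the negative-slope libraries Psmb8 and Psmb9 were the only members wholly higher in KO (31.9% of all genes), and 28 were wholly lower (33%). In the positive-slope libraries Psmd7 was wholly higher (14.8%) and 11 wholly lower (17.3%). Within both slope sets 10 members were lower in KO without overlap (Psma2, Psma6, Psmb2, Psmb3, Psmb4, Psmb6, Psmb7, Psmc3ip, Psmc5 and Psmd1), against 8.99% of all genes, and 0 were higher, against 8.72%. The negative set held 1 WT library in this count, the 1 whose Sgcd level lay within the KO range.

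**Figure D5:**
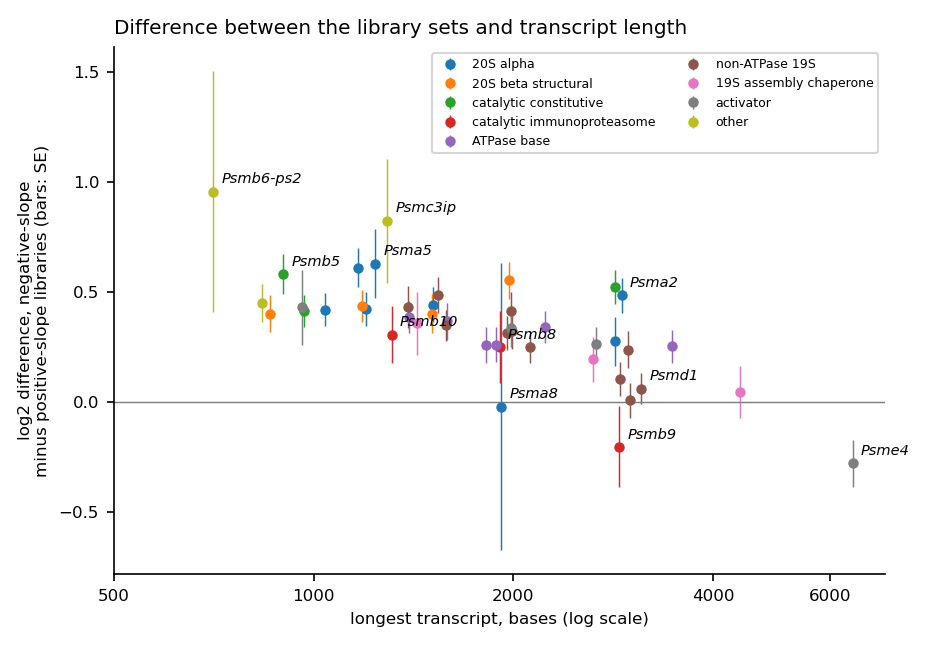
Log2 difference between the negative-slope and positive-slope libraries for each of the 45 genes (bars, SE) against the length of its longest transcript on a log scale, coloured by role. Points fall to the right, from 0.58 for Psmb5 at 899 bases to -0.28 for Psme4 at 6491 bases, with Psma2 at 0.48 among the longer genes.

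Ifetroban left 0 members past the threshold in either genotype. In KO 39 of 45 values were negative (median -0.12, all genes 0.0080) and in WT also 39 (median -0.17, all genes 0.013). The 2 comparisons share no library, but both set more positive-slope ifetroban libraries against more negative-slope vehicle libraries. With the slope set as a term 36 of 45 were positive in KO (median 0.11) and 26 in WT (median 0.026). With KO ifetroban 1 counted as vehicle 43 of 45 were negative in KO (median -0.31), 18 members had an unadjusted p under 0.05 (22.2% of all genes) and 0 passed (0% of all genes). Psmb10 had the lowest unadjusted p in KO, at -0.33 ± 0.18 (adjusted p = 0.862), and Psmb5 the lowest value in WT, at -0.40 ± 0.24 (adjusted p = 0.881). Psmb10 was lower in all 3 KO ifetroban libraries than in both KO vehicle libraries, as were Psma3, Psmc2, Psmd1 and Psmd9, 5 of 45 members against 9.76% of all genes, and 0 were wholly higher (10.4%). In WT 12 members were wholly lower under ifetroban (13.8%) and Psme4 alone wholly higher (17.6%).

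Genes around the proteasome were taken from lists chosen with earlier results of these data known. Of 17 tested assembly, inhibitor and associated factors 0 passed for genotype over both treatments (median 0.045), with Psmg3, a chaperone of core assembly, at 0.38 ± 0.17 (adjusted p = 0.301) and AI314180, the mouse Ecpas gene, at -0.22 ± 0.12 (adjusted p = 0.381). Of the 4 genes that control transcription of constitutive subunits 0 passed (median -0.12), with Ddi2, the protease that activates Nfe2l1, at -0.28 ± 0.14 (adjusted p = 0.377) and Nfe2l1 itself at -0.18 ± 0.099 (adjusted p = 0.406). Of 6 ubiquitin and activating enzyme genes 0 passed (median 0.033), with Rps27a at 0.37 ± 0.23 (adjusted p = 0.456) and Uba1 at -0.075 ± 0.075 (adjusted p = 0.662).

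Of 9 partners in class I antigen processing 0 passed (median 0.075). B2m, the light chain of class I molecules, was at 0.42 ± 0.13 (adjusted p = 0.138) and Pdia3, of the peptide-loading complex, at 0.44 ± 0.16 (adjusted p = 0.202). Tap1, which shares its promoter region with Psmb9, was at 0.075 ± 0.23. Of 21 tested genes of interferon-gamma signalling 1 rose and 0 fell (median -0.058), against 2.33% of all genes passing. The 1 was Irf8, a factor of the myeloid lineage, at 0.73 ± 0.13 (adjusted p = 0.0217), with 4.75 to 7.03 CPM in WT and 8.23 to 10.04 in KO. It did not pass without WT vehicle 2, WT ifetroban 2 or KO vehicle 1. Gbp4 was next by p, at -0.53 ± 0.22 (adjusted p = 0.266), and Irf1, a transcription factor that interferon-gamma induces, was at -0.046 ± 0.093.
Of the remaining cell type markers, 1 of 5 fibroblast genes rose (median of the list 0.34), against 2.33% of all genes passing. It was Col1a1, at 0.91 ± 0.13 (adjusted p = 0.00901), which did not pass without WT ifetroban 2, and the summed level of the list was 541 to 565 CPM in WT and 626 to 906 in KO. Further, 0 of 8 cardiomyocyte genes (median -0.12) and 0 of 5 endothelial genes (median -0.11) passed.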

How the data were processed

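RNA-seq of left ventricle was deposited as 9 tables, 1 per library, with estimated counts per gene. The authors' deposited values are expected counts, of which 28.17% are not whole, and they were rounded here. The submitters' processing notes name bcl2fastq, STAR, Partek and mm10 without role or version. How reads were assigned to genes was not given in the sources used here. Groups follow the titles.

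Members and lists were chosen with earlier results of these data known. All 15549 genes that passed filterByExpr (minimum count 10) were fitted with edgeR 4.0.16 (quasi-likelihood, robust, TMM) in R 4.3.3, with 4 group means or, for effects over both factors, genotype plus treatment. P-values were Benjamini-Hochberg adjusted over all genes (threshold 0.05). CPM are TMM-scaled, and SE is the log2 change over the square root of F. Lengths are from GENCODE M21 and promoters from RefSeq. The fits were tested on simulated data that held no slope of signal on length. Of genes changed by a log2 of 1, edgeR recovered 41.8% under vehicle, 50% under ifetroban and 69.4% over both treatments. It made 15, 13 and 10 false calls in these comparisons. DESeq2 recovered 50%, 63.0% and 79.6%, with 31, 29 and 31 false calls. Changes smaller than a log2 of 1 were not simulated, so recovery at the size of most member values is not known. The rule named the catalytic and activator genes, Psma8, any member past the threshold, the highest and lowest member of each role for genotype over both treatments and for ifetroban in KO, and the 2 genes of smallest p in each other list. Other names, such as Psma2, Psma3, Psma4, Psmd1, Psmd3, Tap1 and Irf1, were chosen after their values were seen. A gene withheld for evaluation is not reported here. Alternatives were DESeq2 1.42.0, other filters, a replicate block, the other label of KO ifetroban 1, a slope set term, a length and GC offset (spline with 4 degrees of freedom), and each library left out. Principal lengths and the sum of Psme2 and Psme2b were added after seeing the data.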

Additional observations from a re-analysis of the deposited data

How the results depend on the processing

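In each of the 123 comparisons made under 19 alternatives, as in the 7 reported, 0 members passed the threshold (the sum of Psme2 and Psme2b is not among them), and the KO minus WT ratio stayed between 0.181 and 0.273 with each library left out. The genotype value over both treatments changed sign for many members, none of them past the threshold. It was positive in 33 of 45 as reported and in 6 of 45 with the slope set as a term. For genes named by the rule that changed sign, this genotype value is given below. With the slope set as a term it was -0.11 for Psma5, -0.13 for Psmb1, -0.17 for Psmb2, -0.16 for Psmb4, -0.091 for Psmb5, -0.11 for Psmb6, -0.19 for Psmb7, -0.064 for Psmc1, -0.13 for Psme2, -0.098 for Psme2b and -0.089 for Psme3. With KO ifetroban 1 as vehicle it was -0.057 for Psmb2, -0.044 for Psmb4, -0.0064 for Psmb6, -0.040 for Psmb7 and -0.0020 for Psme3, and Psme4 under ifetroban was 0.023. With the offset it was -0.084 for Psmb2, -0.080 for Psmb4, -0.034 for Psmb6, -0.015 for Psmb7, -0.053 for Psme2 and -0.027 for Psme3. In the negative-slope libraries alone ifetroban in KO was 0.14 for Psmb8 and -0.12 for Psme4, and in the positive-slope ones alone genotype under ifetroban was 0.041 for Psme4. The cause was not tested.

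With each library left out in turn the genotype value ranged from -0.010 to 0.24 for Psmb1, -0.073 to 0.067 for Psmb2, -0.11 to 0.067 for Psmb3, -0.074 to 0.12 for Psmb4, -0.029 to 0.16 for Psmb6, -0.33 to 0.16 for Psmb6-ps2, -0.077 to 0.16 for Psmb7, -0.0020 to 0.18 for Psmc1, -0.079 to 0.075 for Psmc3, -0.13 to 0.044 for Psme1, -0.051 to 0.14 for Psme2 and -0.037 to 0.090 for Psme3. Psmb8 for ifetroban in KO ranged from -0.33 to 0.037 and Psme4 for genotype under ifetroban from -0.20 to 0.024. Where an arm was left with 1 library, that library was assumed to vary like the other groups.

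Same-numbered libraries correlated at -0.062 to 0.50 in their deviations from the group mean, and differently numbered ones at -0.50 to 0.30. The 0.50 was between the libraries labelled WT vehicle 1 and KO ifetroban 1, both of negative slope. In a group of 2 the deviations mirror each other, so these values cannot show whether replicate numbers pair the samples. With the replicate block 0 members passed in any comparison, Psmb3 was at 0.0055 for genotype over both treatments, and 440 of all genes were called higher and 110 lower for it, against 321 and 42 without the block. Under vehicle the block gave 53 higher and 3 lower, against 8 genes in all, and under ifetroban 155 and 17, against 6 in all. With groups of 2 or 3 libraries and levels under 1 CPM, values of Psma8 and Psmb6-ps2 are the least precise.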
